A study of Mus musculus with 9 samples.

Results

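Expression over the autosomes was compared between a salivary and an oral keratinocyte cell line of the mouse, using all 9 RNA-seq libraries of the series. mSGc is a spontaneously immortalized epithelial line from the submandibular glands of 12 week old male C57BL/6 mice, and its 6 libraries were made at passage (P) 2, 4, 10 and 25 in SFM and at P10 and P25 in SCM, with 1 library per condition. The labels name these media progenitor and differentiating. They are taken here to be SFM, a serum-free medium with growth factors and dexamethasone, and SCM, which contains serum, retinoic acid, thyroid hormone and hydrocortisone, since the study used these 2 media for its RNA-seq; no label states this match. IMOK is an immortalized oral keratinocyte line, also C57BL/6, labelled as early passage. Its 3 replicate libraries were grown in a medium of their own. Per the paper, IMOK shared its passage number with the P10 mSGc cells, so the mSGc libraries at other passages differ from it in passage too. Each line is 1 immortalized culture and no source says that the libraries came from separate cultures, so the p-values measure the spread between these libraries, and cell line, culture medium and experiment cannot be told apart. Of 23366 gene entries, 22215 lay on autosomes, and 12465 of these passed the filter on low counts and were tested. A gene was called when edgeR's quasi-likelihood test gave a Benjamini-Hochberg adjusted p under 0.05, and the distance between the lines was taken as the fold between the lowest library of the higher line and the highest library of the other, on CPM + 0.5, where CPM are counts scaled to the library size. Levels are given as TPM, read counts scaled by gene length and library total, and as the lowest, median and highest of the 6 mSGc libraries followed by IMOK replicates 1, 2 and 3.

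The submandibular gland buds from the oral epithelium of the embryo, so both lines trace back to the same lining. In the adult gland acinar cells secrete fluid and protein, ducts modify the saliva, myoepithelial cells contract around them, and basal duct cells carry the keratins that mark the basal layer of the oral mucosa. The mucosa itself is a stratified squamous epithelium, and the regional identity of such epithelia is held by transcription factors of the homeobox, T-box and related families.

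The labels were checked against marker genes. All 7 basal keratinocyte markers and all 4 general epithelial markers reached 1 TPM in each of the 9 libraries. Of 10 salivary acinar markers 1 did so, of 10 salivary duct markers 3, of 5 myoepithelial markers 1 and of 7 oral suprabasal keratinocyte markers 4. The summed level of the acinar markers ran from 14.1 to 162 TPM over the mSGc libraries and from 213 to 457 TPM over IMOK. Of these 10 markers 0 were called higher in mSGc and 2 lower. Such a sum can rest on 1 gene: Aqp5 alone was 213 TPM in IMOK replicate 1. The duct markers summed to between 1787 and 13060 TPM in mSGc and between 1792 and 3603 TPM in IMOK. For the oral suprabasal keratinocyte markers the sum was 775 to 2364.5 TPM in mSGc and 606 to 1133.5 TPM in IMOK. Of these 7 markers 2 were called higher in mSGc and 0 lower. The acinar, duct and suprabasal sums thus did not sort the lines by their labels. The 6 leukocyte markers had at most 3 counts in every library, and the fibroblast markers summed to between 0.320 and 22.6 TPM in mSGc and between 1.30 and 6.41 TPM in IMOK. Total counts ran from 6237884 to 17089965 in mSGc and from 16848411 to 18444963 in IMOK, so that 3 counts stood for 0.163 to 0.481 CPM. The IMOK replicates were not equally close: the chi-square per degree of freedom of their counts was 21.3 between replicates 2 and 3. It was 149.7 and 179.6 between replicate 1 and these. Among the mSGc libraries it was 37.7 to 149, but this measure grows with total counts, which ran lower in mSGc. It therefore does not compare the spread of the 2 lines. In bulk RNA, fewer cells that express a gene and less RNA per cell cannot be told apart.

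Of the 12465 genes tested 816 (6.55%) were called higher in mSGc and 1054 (8.46%) lower, together 15% of those tested. The median log2 fold change of the genes called was 1.41 for those higher and -1.38 for those lower. Every mSGc library lay above every IMOK library for 1199 genes (9.62%) and below for 1403 (11.3%), and 767 (6.15%) and 970 (7.78%) genes met this and were called. A distance of at least 2-fold was met by 160 genes called higher (1.28%) and 246 called lower (1.97%), of at least 4-fold by 46 and 77, and of at least 16-fold by 12 and 8. For 85 genes called higher and 69 called lower the other line had at most 3 counts in every library. A call did not need such a distance: 49 genes called higher and 84 called lower overlapped between the lines.

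The number of calls depended on which IMOK library was left out. Without IMOK replicate 2 there were 258 genes higher and 453 lower, without replicate 3 there were 307 and 606, and without replicate 1, the one that stood apart, 908 and 954. The genes separated at least 2-fold in every library numbered 317 and 349 without replicate 1. Of the 1870 genes called, 628 (230 higher and 398 lower) were called in the same direction in each of the 9 fits that left out 1 library, and 325 (151 higher and 174 lower) were called both with the SFM and with the SCM libraries alone. No gene was called in opposite directions in any alternative. The called genes described below with their levels held their call in all 9 of these fits unless the text names a library whose removal ended it. Scaling by library size without TMM moved the split to 637 higher and 1353 lower.

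Among the genes with the widest distance, those higher in mSGc included a pair of patterning factors, a growth factor and DNA repair and transport proteins. Tlx1, a homeobox factor required for the spleen, was read from 33.4 through a median of 35.4 to 49.3 TPM in mSGc and had no count in IMOK. Its level in mSGc was at least 234-fold above the 3 counts that a library without a read allows (adjusted p = 2.62e-05), and the 6 mSGc libraries lay within a narrow band. Fam5c, a member of the Brinp family known from neurons, was likewise without a count in IMOK and ran from 15.2 through a median of 33.9 to 66.98 TPM in mSGc (at least 377-fold, adjusted p = 0.000857). Fam111a, a protease involved in DNA replication and in restricting viruses, showed the widest distance of all, 78.6-fold, running from 33.1 through a median of 51.7 to 115 TPM in mSGc against 0.11, 0.109 and 0.039 TPM in IMOK (pooled ratio 772, 95% interval 374 to 1921, adjusted p = 5.31e-05). Ereg, the EGF receptor ligand epiregulin, ran from 11.8 through a median of 23.8 to 35.3 TPM in mSGc and had 2 counts in the 3 IMOK libraries together (pooled ratio 1473, 95% interval 408 to 12168, adjusted p = 5.31e-05). Both are thus genes that were read in every mSGc library at every passage and were close to absent in IMOK. Mgmt, which removes alkyl groups from guanine in DNA, ran from 35.8 through a median of 77.5 to 99.2 TPM in mSGc with 2 counts in IMOK (pooled ratio 935, 95% interval 259 to 7727, adjusted p = 4.09e-05), and Gipc2, a PDZ domain protein, ran from 21.1 through a median of 31.96 to 55.9 TPM with 1 count (pooled ratio 1287, 95% interval 231 to 50862, adjusted p = 5.31e-05).

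The other genes higher in mSGc had some counts in at least 1 IMOK library. Ddit4l, an inhibitor of mTOR signalling, ran from 19.2 through a median of 40.1 to 49.8 TPM in mSGc and was 0.388, 0.213 and 0.0458 TPM in IMOK (log2 fold change 7.56 ± 0.54, adjusted p = 5.31e-05). Rnf219, a RING finger protein, ran from 10.1 through a median of 15.9 to 19.8 TPM against 0.03395, 0.134 and 0.0361 TPM (log2 fold change 7.90 ± 0.57, adjusted p = 5.31e-05). Slc15a2, the proton-coupled peptide transporter PEPT2, ran from 6.397 through a median of 16.1 to 38.9 TPM, with its lowest level at P2, against 0.1399, 0 and 0 TPM (log2 fold change 8.70 ± 0.97, adjusted p = 0.000558). Ctsz, the lysosomal protease cathepsin Z, was highest at P2 and ran from 38.3 through a median of 59.5 to 183 TPM in mSGc against 2.27, 0.2498 and 0.448 TPM in IMOK (log2 fold change 6.58 ± 0.83, adjusted p = 0.00119). Lgals7, galectin-7 of stratified epithelia, ran from 59.03 through a median of 264 to 1198 TPM in mSGc, the highest at P25 in SFM, against 1.57, 1.75 and 0.627 TPM in IMOK (log2 fold change 8.43 ± 1.31, adjusted p = 0.00314). All mSGc libraries lay above all IMOK libraries for each of these genes, which follows from their choice by distance.

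Developmental regulators among the genes with the widest distance lower in mSGc (Tbx1, Eya1, Hoxb9 and Hmx1) are described further below. Tenm3, a teneurin that guides neuronal wiring, was 19.9, 40.1 and 42.1 TPM in IMOK and ran from 0 through a median of 0.0449 to 0.204 TPM in mSGc (log2 fold change -8.52 ± 0.63, adjusted p = 5.31e-05), the widest distance in this direction (49.4-fold). Cxcr7, the scavenging receptor for the chemokine CXCL12 now named Ackr3, was 37.04, 23.1 and 22.4 TPM in IMOK and ran from 0.0938 through a median of 0.2202 to 0.652 TPM in mSGc (log2 fold change -6.20 ± 0.47, adjusted p = 5.76e-05). Parvb, the focal adhesion protein beta-parvin, was 23.7, 7.39 and 5.86 TPM in IMOK with 4 counts in mSGc (pooled ratio 359.6, 95% interval 140.1 to 1322, adjusted p = 0.000315), and Qrfp, a neuropeptide precursor, was 20.1, 6.89 and 5.53 TPM with 5 counts (pooled ratio 195, 95% interval 83.3 to 603, adjusted p = 0.000445). In both, IMOK replicate 1 was the highest. Apol7a, of the apolipoprotein L family whose copies can share reads, was 25.5, 17.8 and 12.1 TPM in IMOK against at most 0.466 TPM in mSGc (log2 fold change -6.90 ± 0.89, adjusted p = 0.00125). Eno3, the muscle form of enolase, was readable in every library and varied little within a line, running from 3.97 through a median of 5.48 to 6.91 TPM in mSGc against 113, 91.8 and 87.03 TPM in IMOK (log2 fold change -3.94 ± 0.21, adjusted p = 1.2e-05).

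**Figure D1:**
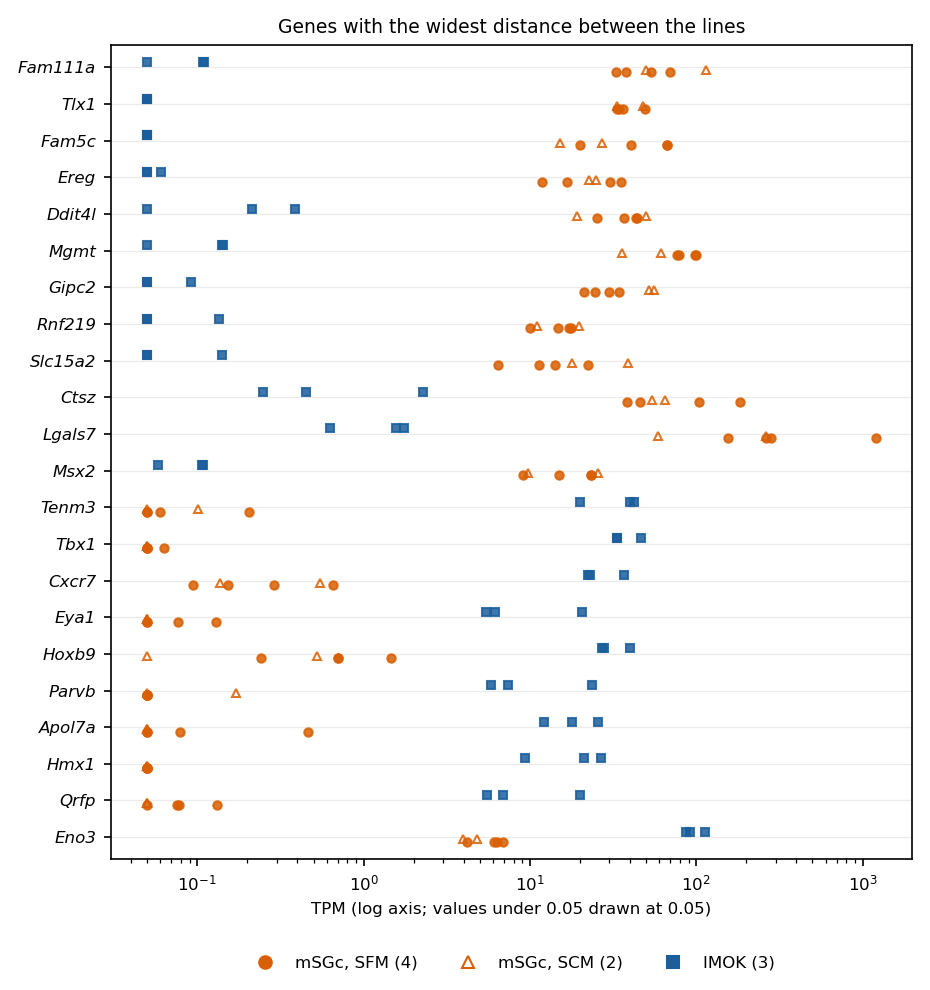
Level in TPM (log axis) of genes with the widest distance between the lines, ordered by direction and distance. Circles are the 4 mSGc libraries in SFM, triangles the 2 in SCM and squares the 3 IMOK replicates. Values under 0.05 TPM are drawn at 0.05. For each gene the mSGc and IMOK symbols do not overlap, which follows from the choice by distance.

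Patterning transcription factors separated the lines in both directions. Of 59 tested members of the list of homeobox, T-box and related factors 12 were called higher and 14 lower in mSGc, 44.1% in all beside 15% of all genes tested, and 9 and 12 of them were separated at least 2-fold in every library beside 1.28% and 1.97% of all genes. Its median log2 fold change was -0.11 and its median absolute change was 2.26 beside 0.43 over all autosomal genes. Of these calls 10 of the 12 and 11 of the 14 held in all 9 fits with a library left out, and 10 and 6 were called in both media.

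The promoters of 3 of these genes are printed because the lines differed at them by presence or absence of the transcript: Tlx1 and Msx2, read in mSGc, and Tbx1, read in IMOK. Each window runs from 250 bases before to 50 after the start of the RefSeq transcript (GRCm38.p6), with the transcribed strand 5′ to 3′, and capitals mark each match to the GC box GGGCGG, the CCAAT box and the homeodomain core TAATTA on either strand. The windows are chr19:45150465-45150764 on the plus strand for Tlx1, chr13:53472731-53473030 on the minus strand for Msx2 and chr16:18588850-18589149 on the minus strand for 1 of the Tbx1 starts.
Tlx1: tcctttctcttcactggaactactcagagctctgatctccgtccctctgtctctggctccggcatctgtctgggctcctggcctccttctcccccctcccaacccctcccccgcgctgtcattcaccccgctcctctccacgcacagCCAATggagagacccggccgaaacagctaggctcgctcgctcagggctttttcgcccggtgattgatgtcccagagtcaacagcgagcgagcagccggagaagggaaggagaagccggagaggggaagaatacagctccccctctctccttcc
Msx2: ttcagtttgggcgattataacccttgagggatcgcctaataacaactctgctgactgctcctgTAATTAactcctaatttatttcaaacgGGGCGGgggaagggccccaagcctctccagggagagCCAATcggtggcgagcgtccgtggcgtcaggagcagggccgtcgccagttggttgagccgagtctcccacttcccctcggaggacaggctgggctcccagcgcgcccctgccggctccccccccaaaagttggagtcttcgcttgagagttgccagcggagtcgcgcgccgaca
Tbx1: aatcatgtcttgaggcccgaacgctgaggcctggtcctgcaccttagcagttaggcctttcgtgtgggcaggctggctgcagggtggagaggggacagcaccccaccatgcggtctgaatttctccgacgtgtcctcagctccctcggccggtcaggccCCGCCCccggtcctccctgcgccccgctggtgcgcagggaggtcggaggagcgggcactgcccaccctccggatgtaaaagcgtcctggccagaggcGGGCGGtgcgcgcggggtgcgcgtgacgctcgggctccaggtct
The Tlx1 window held 16 CpG dinucleotides and a CCAAT box, the Msx2 window 22 with all 3 motifs, and the Tbx1 window 26 with a pair of GC boxes. In windows of the same length at the annotated starts of all autosomal genes in mm9 the median was 13 CpG. Of these windows 46.1% held a GC box, 37.8% a CCAAT box and 4.64% the core TAATTA. Over the genes tested alone the median was 21 CpG, and the shares were 65.1%, 38% and 2.33%. These matches describe the sequence and name no bound factor.

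Msx2, a homeobox factor of teeth, skull and skin appendages, ran from 9.09 through a median of 19.1 to 25.5 TPM in mSGc against 0.109, 0.107 and 0.0577 TPM in IMOK, where 5 counts were found in all (pooled ratio 237, 95% interval 101 to 731, adjusted p = 8.39e-05). Nkx2-3, a homeobox factor of gut and spleen that is also known from developing oral and salivary epithelium, ran from 28.1 through a median of 39.9 to 63.6 TPM in mSGc and was 5.33, 3.02 and 3.07 TPM in IMOK (log2 fold change 3.65 ± 0.28, adjusted p = 5.76e-05). Both held their distance at each passage and in both media, which follows from their choice by distance. Tlx1 and Nkx2-3 both lie on chromosome 19 (mm9 chr19:45225205-45231433 and chr19:43686815-43690382), a chromosome whose median was lower in mSGc, as given below. Pax9, a paired-box factor of oral mesenchyme and epithelium, ran from 17.7 through a median of 31.3 to 45.01 TPM in mSGc against 6.06, 6.398 and 5.82 TPM in IMOK (log2 fold change 2.55 ± 0.25, adjusted p = 0.000242). The Meis homeobox partners of Hox and Pbx proteins were higher too, with Meis1 at from 27.02 through a median of 35.8 to 59.4 TPM against 8.59, 7.25 and 5.69 TPM (log2 fold change 2.71 ± 0.29, adjusted p = 0.000424) and Meis2 at from 21.7 through a median of 30.4 to 53.4 TPM against 7.86, 3.63 and 3.46 TPM (log2 fold change 2.93 ± 0.33, adjusted p = 0.000533). Irx2, an Iroquois homeobox factor, ran from 53.9 through a median of 71.3 to 96.4 TPM against 19.3, 13.4 and 17.2 TPM (log2 fold change 2.33 ± 0.23, adjusted p = 0.000242), and Tbx3, a T-box repressor of limb and mammary buds, from 2.99 through a median of 4.55 to 6.27 TPM against 0.577, 0.456 and 0.319 TPM (log2 fold change 3.54 ± 0.40, adjusted p = 0.000569). These genes were thus expressed in both lines and shifted by several fold, unlike Tlx1 and Msx2. Six2, a homeobox factor of nephron progenitors, was called higher (log2 fold change 5.28 ± 0.94, adjusted p = 0.00582), yet its level in mSGc differed widely by passage, from 15.7 TPM at P2 and 14.95 TPM at P4 to 8.97 TPM at P10 and 2.18 TPM at P25 in SFM.

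The factors lower in mSGc were mostly read in IMOK alone. Tbx1, the T-box factor of the pharyngeal arches that is deleted in DiGeorge syndrome, was 46.8, 33.4 and 33.6 TPM in IMOK and had 1 count in the 6 mSGc libraries (pooled ratio 2107, 95% interval 378 to 83275, adjusted p = 1.2e-05). Hmx1, a homeobox factor of the outer ear and sensory ganglia, was 9.34, 26.9 and 21.3 TPM in IMOK without a count in mSGc (at least 26.2-fold lower, adjusted p = 0.00229). No library of one line came near the other for these genes, which were chosen by distance. The Eya proteins, phosphatases that act with homeobox partners, moved in the same direction: Eya1 was 20.7, 6.19 and 5.48 TPM in IMOK with 6 counts in mSGc (pooled ratio 246, 95% interval 113 to 672, adjusted p = 0.000626), and Eya4 was 4.72, 3.34 and 2.86 TPM against at most 0.184 TPM (log2 fold change -5.02 ± 0.67, adjusted p = 0.00159). Hoxb9, a Hox gene of the trunk, was 40.04, 27.8 and 27.1 TPM in IMOK and ran from 0 through a median of 0.612 to 1.47 TPM in mSGc (log2 fold change -5.40 ± 0.60, adjusted p = 0.000558). Pax3, of neural crest and muscle precursors, was 13.3, 7.23 and 5.902 TPM in IMOK against at most 0.329 TPM in mSGc (log2 fold change -6.44 ± 0.87, adjusted p = 0.00164), and Pax6, of eye and pancreas, was 4.65, 0.977 and 1.05 TPM with 4 counts in mSGc (pooled ratio 64.5, 95% interval 24.8 to 239, adjusted p = 0.00219). Tbx18 was 3.74, 1.64 and 1.52 TPM in IMOK with 4 counts in mSGc (pooled ratio 84.4, 95% interval 32.6 to 312, adjusted p = 0.000914). For Eya1, Pax3, Pax6 and Tbx18 the highest level was in IMOK replicate 1.

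**Figure D2:**
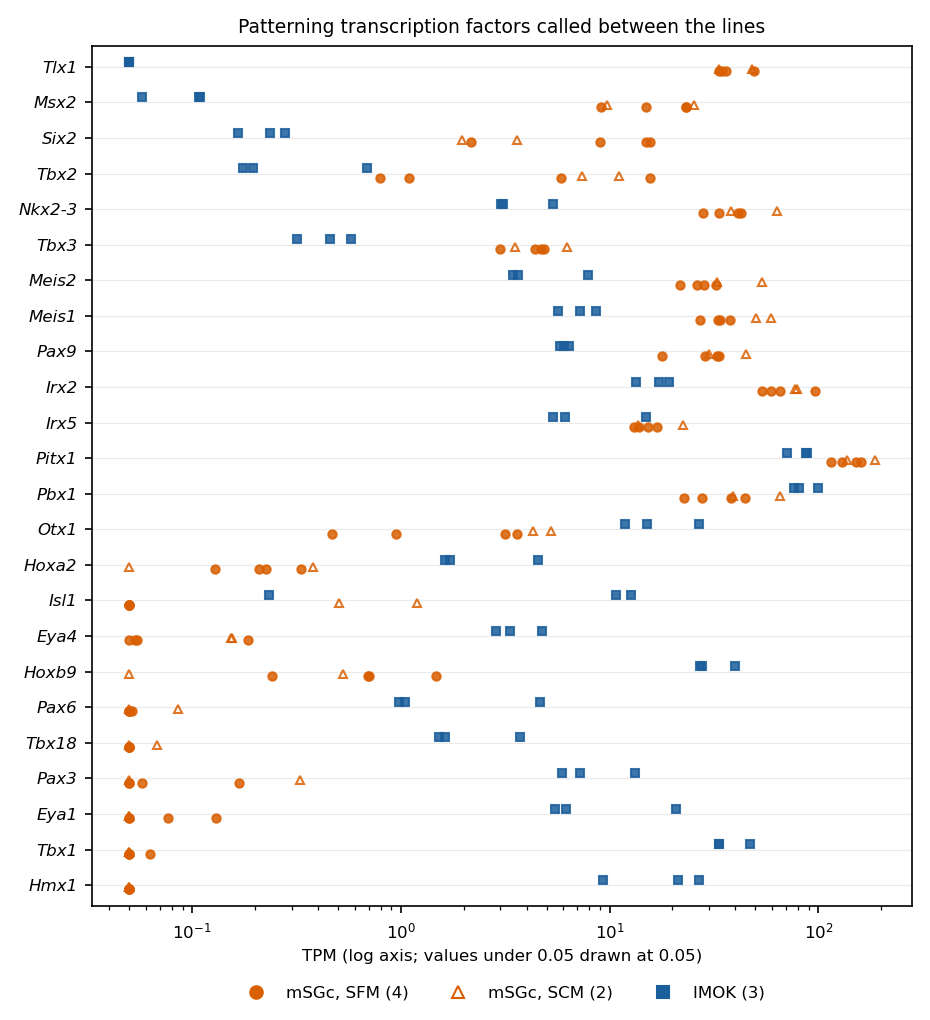
Level in TPM (log axis) of patterning transcription factors called between the lines, from the largest log2 fold change higher in mSGc at the top to the largest lower at the bottom. Circles are mSGc libraries in SFM, triangles those in SCM and squares the IMOK replicates, and values under 0.05 TPM are drawn at 0.05; the groups lie apart for most genes, while Isl1 and Irx5 overlap on this scale.

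Epithelial transcription factors differed less. Of 39 tested members 7 were called higher and 4 lower (28.2%), 3 of which held with every library left out. Gata6, a zinc finger factor of endoderm and of sebaceous and upper hair follicle cells, was 7.49, 5.56 and 4.76 TPM in IMOK with 2 counts in mSGc (pooled ratio 297, 95% interval 81.8 to 2461, adjusted p = 0.000171). Id3, an inhibitor of basic helix-loop-helix factors and a target of BMP signals, ran from 4.79 through a median of 13.4 to 55.5 TPM in mSGc against 0.616, 1.46 and 1.31 TPM in IMOK (log2 fold change 4.43 ± 0.89, adjusted p = 0.0103), and Tfap2a, an AP-2 factor of surface ectoderm, from 27.5 through a median of 33.5 to 40.6 TPM against 21.8, 21.9 and 17.5 TPM (log2 fold change 0.97 ± 0.18, adjusted p = 0.00725). Tfap2c, the related AP-2 factor, ran from 15.8 through a median of 29.9 to 40.96 TPM against 13.1, 5.37 and 2.15 TPM (log2 fold change 2.44 ± 0.54, adjusted p = 0.0158, and 0.0785 without IMOK replicate 2). Tfcp2l1, a grainyhead-like factor of ducts and kidney tubules, ran from 1.81 through a median of 31.7 to 484 TPM in mSGc, the highest at P10 in SCM, against 2.48, 0.363 and 0.229 TPM in IMOK (log2 fold change 6.91 ± 1.83, adjusted p = 0.0318, and 0.125 and 0.107 without IMOK replicate 2 or 3). Sox2, a progenitor factor of foregut and salivary epithelium, was lower at from 22.5 through a median of 26.8 to 44.2 TPM against 65.8, 61.01 and 53.1 TPM (log2 fold change -0.83 ± 0.19, adjusted p = 0.0187, and 0.0851 and 0.0558 without IMOK replicate 2 or 3). Trp63, the p63 gene that maintains basal epithelia, ran from 27.6 through a median of 68.98 to 94.6 TPM in mSGc against 149, 101 and 72.4 TPM in IMOK, and the libraries overlapped (adjusted p = 0.473).

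Keratins of the basal layer were abundant in both lines. Krt5 ran from 2559 through a median of 6562 to 9386 TPM in mSGc against 4399, 5150.2 and 4284 TPM in IMOK (adjusted p = 0.4), and Krt17, a keratin of activated and glandular basal cells, from 1837 through a median of 4157 to 5562 TPM against 3121, 1509 and 1633 TPM (adjusted p = 0.123). Krt14, the partner of Krt5, was called higher at from 4728 through a median of 5763 to 9092 TPM against 3262, 3154 and 3319 TPM (log2 fold change 1.27 ± 0.33, adjusted p = 0.0297), and lost the call without IMOK replicate 1, 2 or 3 (adjusted p = 0.0714, 0.12 and 0.087) or without the P4 library in SFM (0.05). Krt15, a keratin of quiescent basal and stem cells, showed the widest distance of the basal list, running from 42.95 through a median of 113 to 547 TPM in mSGc against 2.66, 19.5 and 5.37 TPM in IMOK (log2 fold change 4.63 ± 1.06, adjusted p = 0.0177, and 0.0745 without IMOK replicate 3). Of the 24 basal genes tested 5 were called higher and 0 lower (20.8%, beside 6.55% higher and 8.46% lower of all genes), and none of the 5 held in all 9 fits. At an unadjusted p under 0.05 there were 11.

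Squamous and cornification genes were called higher or not at all. Of 37 tested 8 were called higher and 0 lower (21.6%), with 18 at an unadjusted p under 0.05 and a median log2 fold change of 1.42, and only Calml3 held in all 9 fits. Calml3, a calmodulin-like protein of epithelia, ran from 1.56 through a median of 5.44 to 15.96 TPM in mSGc with 5 counts in IMOK (pooled ratio 60.6, 95% interval 25.7 to 188, adjusted p = 0.00758). Serpinb2, plasminogen activator inhibitor 2, ran from 52.7 through a median of 135 to 361 TPM against 2.41, 18.6 and 19.1 TPM (log2 fold change 3.94 ± 0.89, adjusted p = 0.0168, and 0.0634 and 0.0511 without IMOK replicate 2 or 3). Krt16, a stress keratin, ran from 26.1 through a median of 66.6 to 119 TPM against 23.9, 7.64 and 9.41 TPM (log2 fold change 2.65 ± 0.58, adjusted p = 0.0151, and 0.0747 and 0.0667 without them), and Krtdap, a keratinocyte differentiation protein, from 2.095 through a median of 9.43 to 24.4 TPM against 1.801, 1.53 and 0.274 TPM (log2 fold change 3.37 ± 0.85, adjusted p = 0.0258, and 0.0934 and 0.0904 without them). Krt4, the keratin of the upper mucosal layers, differed by medium within mSGc: it was 88.2 and 94.8 TPM at P10 and P25 in SCM, 0.204 and 0.386 TPM at these passages in SFM, and 3.1 and 8.51 TPM at P2 and P4. IMOK held 4 counts of it (pooled ratio 409.6, 95% interval 159.7 to 1505, adjusted p = 0.0429), and the call was lost without any 1 of the IMOK replicates (adjusted p = 0.0929, 0.151 and 0.136) and without 3 of the mSGc libraries.

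Of the 26 simple epithelial and luminal genes tested 1 was called, the tetraspanin Cd9, at from 1114 through a median of 1281 to 1610.0 TPM in mSGc and 368, 759 and 643 TPM in IMOK (log2 fold change 1.37 ± 0.28, adjusted p = 0.0109). The duct keratins did not pass the test and spread widely over the mSGc libraries. Krt8 ran from 672 through a median of 2547 to 6326 TPM against 1295, 659 and 816 TPM (adjusted p = 0.0697), Krt18, its partner, from 516 through a median of 1836 to 4548 TPM against 1522, 365 and 495 TPM (adjusted p = 0.134) and Krt7 from 97.8 through a median of 1793 to 3232 TPM against 555, 347 and 421 TPM (adjusted p = 0.133). Krt19 was 287 TPM at P10 in SCM but 0.428 and 2.32 TPM at P25, against 219, 384 and 323 TPM in IMOK (adjusted p = 0.317). Epcam, an adhesion protein of simple and ductal epithelium, was from 307 through a median of 432 to 692 TPM in mSGc and 777, 852 and 799.7 TPM in IMOK (adjusted p = 0.0831). For each of these keratins the libraries of both lines overlapped.

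Genes of salivary secretion were called about as often as other genes. Of 30 tested 3 were called higher and 2 lower (16.7%, beside 15% of all genes). Aqp5, the water channel of the acinar apical membrane, was lower in mSGc at from 1.402 through a median of 9.03 to 20.9 TPM against 213, 111 and 72.95 TPM (log2 fold change -3.44 ± 0.69, adjusted p = 0.0101). Smr3a, a submandibular secretory protein whose relatives can share reads, was 0 TPM in 5 mSGc libraries and in IMOK replicate 1, 3.86 TPM at P4, and 71.7 and 81.3 TPM in IMOK replicates 2 and 3 (adjusted p = 0.0437). Its libraries overlapped, and among the fits with a library left out it was called only without IMOK replicate 1 (without IMOK replicate 2, for example, adjusted p = 0.127). Amy1, salivary amylase, was from 0 through a median of 0.983 to 3.38 TPM in mSGc against 0.129, 22.1 and 24.9 TPM in IMOK (adjusted p = 0.126), again low in replicate 1. Aqp5, Smr3a and Amy1 were thus not among the 3 members called higher in the salivary line. Chrm3 and P2rx7, described next, were among these 3. Of the calls on this list 2 higher and 1 lower held in all 9 fits with a library left out.

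Of the receptors through which nerves and nucleotides act on the gland, Chrm3 and P2rx7 were called higher in mSGc. Chrm3, the muscarinic receptor that triggers fluid secretion, ran from 0.223 through a median of 3.601 to 12.3 TPM with 4 counts in IMOK (pooled ratio 103, 95% interval 39.96 to 379, adjusted p = 0.00683). P2rx7, a purinergic receptor channel, ran from 9.15 through a median of 12.6 to 17.7 TPM against 2.57, 1.38 and 0.972 TPM (log2 fold change 3.16 ± 0.33, adjusted p = 0.000382). Over the wider list of neurotrophin, adrenergic, muscarinic, purinergic, glutamate and GABA receptors 8 of 28 tested were called higher and 1 lower (32.1%, beside 15% of all genes), 4 of which held in all 9 fits. Ntrk3, the receptor of neurotrophin 3, ran from 2.19 through a median of 3.65 to 18.7 TPM in mSGc, the highest at P10 in SCM, with 1 count in IMOK (pooled ratio 937, 95% interval 168 to 37049, adjusted p = 0.00157). Ntf3, its ligand neurotrophin 3, went the other way, with 7.05, 6.37 and 6.61 TPM in IMOK and 1 count in mSGc (pooled ratio 323, 95% interval 57.4 to 12792, adjusted p = 0.000163). The receptor and its ligand were thus each read in 1 of the lines.

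Of 46 ion and water transport genes 7 were called higher and 6 lower (28.3%). Homer2, a scaffold protein of calcium signalling in exocrine cells, ran from 0.876 through a median of 12.8 to 14.9 TPM in mSGc, its lowest at P25 in SFM, against 0.0526, 0.0104 and 0 TPM in IMOK (log2 fold change 8.99 ± 1.19, adjusted p = 0.00148). Slc12a7, the potassium-chloride cotransporter KCC4, was lower at from 12.6 through a median of 17.1 to 23.1 TPM against 68.4, 58.8 and 52.5 TPM (log2 fold change -1.57 ± 0.14, adjusted p = 0.000162), as was Aqp3, the basolateral glycerol and water channel, at from 2.15 through a median of 3.13 to 4.72 TPM against 21.4, 39.2 and 10.5 TPM (log2 fold change -2.65 ± 0.42, adjusted p = 0.00332). Car9, a hypoxia-responsive carbonic anhydrase, ran from 7.33 through a median of 21.9 to 84.3 TPM against 1.44, 1.36 and 0.828 TPM (log2 fold change 5.09 ± 1.09, adjusted p = 0.0135, and 0.0627 and 0.0602 without IMOK replicate 2 or 3). Its 3 highest values were those of the P10 library in SCM and both P25 libraries.

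The list of p53 targets and cell cycle inhibitors had the most calls in 1 direction. p53, a transcription factor that binds a paired response element, induces inhibitors of the cell cycle, repair proteins and its own inhibitor Mdm2. Of 39 tested members 18 were called higher in mSGc and 1 lower, 48.7% in all beside 6.55% higher and 8.46% lower over all genes, with a median log2 fold change of 1.13. Of the 18, 12 held in all 9 fits, and 9 were separated at least 2-fold. The median over the list, relative to the IMOK mean, was 0.98 to 1.47 (log2) in the 6 mSGc libraries and -0.14 to 0.05 in the IMOK replicates, so that each passage and medium showed it. With the 2 SCM libraries alone 6 were called.

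Ccng1, cyclin G1, ran from 261 through a median of 435 to 635 TPM in mSGc against 45.4, 49.4 and 48.01 TPM in IMOK (log2 fold change 3.38 ± 0.29, adjusted p = 0.000109), the widest distance of the list. Cdkn1a, which encodes the cyclin-dependent kinase inhibitor p21, ran from 177 through a median of 399 to 592 TPM against 49.1, 46.8 and 25.1 TPM (log2 fold change 3.39 ± 0.41, adjusted p = 0.000915), and Mdm2, the ubiquitin ligase of p53, from 92.6 through a median of 165 to 242 TPM against 47.4, 48.01 and 48.7 TPM (log2 fold change 1.97 ± 0.26, adjusted p = 0.00157). In all 3 the lowest mSGc level was well over the highest IMOK level, and a P25 library held the lowest mSGc value. For Ccng1 and Cdkn1a the separation follows from their choice by distance. Trp53inp1, a p53-induced autophagy and death regulator, ran from 50.98 through a median of 110.3 to 182 TPM against 14.1, 5.62 and 1.72 TPM (log2 fold change 4.20 ± 0.68, adjusted p = 0.00364), Btg2, an antiproliferative protein, from 60.8 through a median of 182 to 282 TPM against 27.9, 9.44 and 6.27 TPM (log2 fold change 3.75 ± 0.65, adjusted p = 0.00514), and Polk, a translesion polymerase, from 23.9 through a median of 31.1 to 51.1 TPM against 8.86, 9.08 and 8.797 TPM (log2 fold change 2.14 ± 0.26, adjusted p = 0.000978). Gdf15, a stress cytokine, was 160.2 TPM at P2 and 19.2 and 15.9 TPM at P25 in SFM and SCM, against 6.603, 10.2 and 6.21 TPM in IMOK (log2 fold change 3.82 ± 0.80, adjusted p = 0.0123, and 0.0559 without IMOK replicate 3). Trp53 itself ran from 113 through a median of 169.5 to 189 TPM in mSGc against 144, 147 and 176 TPM in IMOK, with overlapping libraries (adjusted p = 0.583). Cdkn2a, which encodes p16 and the Mdm2 inhibitor p19ARF, was the member called lower, at from 14.9 through a median of 44.7 to 89.98 TPM against 423, 204 and 179.8 TPM (log2 fold change -2.25 ± 0.50, adjusted p = 0.016, and 0.0521 without IMOK replicate 1).

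A window upstream of Cdkn1a is printed because it is the promoter window of the list that holds the paired core of the p53 response element, here searched as CATGNNNNNNCATG, which reads the same on both strands. It covers chr17:29090729-29091028 on the plus strand (RefSeq, GRCm38.p6) at an upstream transcript start, with the core in capitals.
Cdkn1a: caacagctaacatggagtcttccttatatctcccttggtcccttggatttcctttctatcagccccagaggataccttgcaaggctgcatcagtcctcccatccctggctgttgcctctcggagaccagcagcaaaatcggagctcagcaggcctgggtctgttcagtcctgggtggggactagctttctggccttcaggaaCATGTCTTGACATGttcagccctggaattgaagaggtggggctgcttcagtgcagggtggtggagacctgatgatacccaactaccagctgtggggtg
The core was found in a window of 0.833% of the 27025 genes of the promoter table and of 1 of the 28 list members that the table holds. A match describes the letters of this window and was not tied to the level of any gene.

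**Figure D3:**
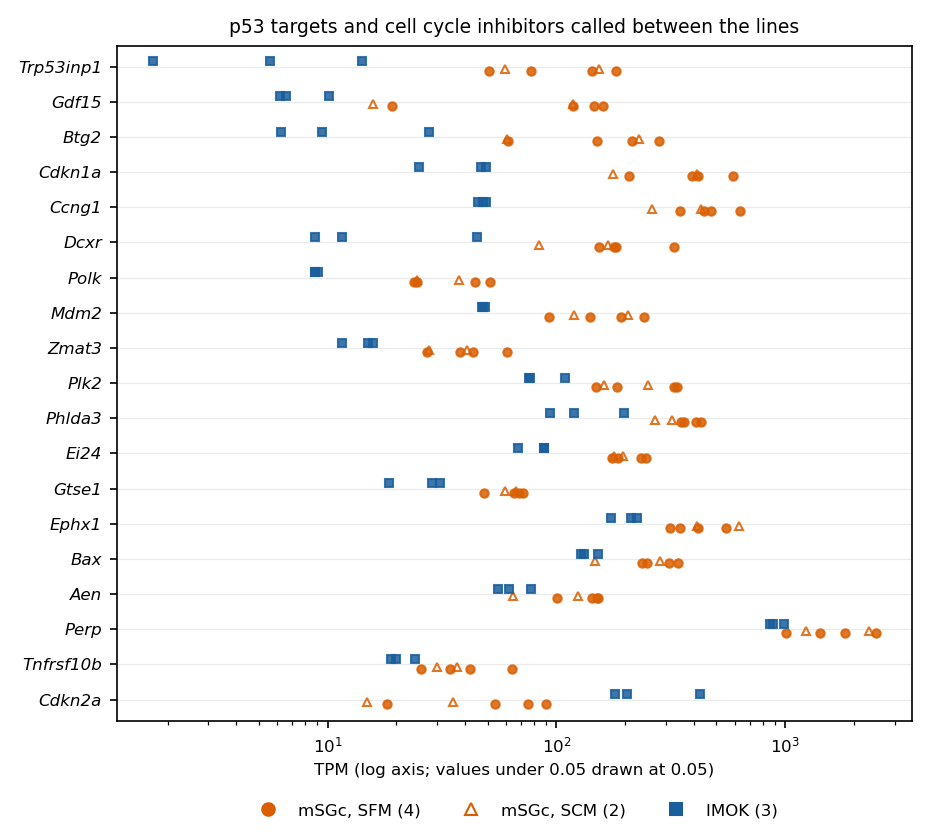
Level in TPM (log axis) of the 19 p53 targets and cell cycle inhibitors called between the lines, those higher in mSGc first and Cdkn2a, lower in mSGc, last. Circles are mSGc libraries in SFM, triangles those in SCM and squares the IMOK replicates; for the genes at the top the mSGc symbols all lie to the right of IMOK.

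Cell cycle genes did not pass the test in either direction. Of 49 genes of the S and G2/M phases edgeR called 0, beside 15% of all genes. There were 5 at an unadjusted p under 0.05, and the median log2 fold change was -0.25. In the fits that left out 1 library at most 1 was called higher and 2 lower. The list varied within each line. Relative to the IMOK mean, its median log2 level was -0.78 at P2, -0.02 at P4 and -1.08 at P10 in SFM. It was -0.53 at P10 in SCM, and 0.48 and 0.60 at P25 in SFM and SCM. In IMOK replicates 1, 2 and 3 it was -0.97, 0.48 and 0.48. A list without calls therefore does not show that the lines were alike.

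Growth factor pathways are given by the members called. Of 21 genes of the EGF receptor family (9.52% called) Ereg was called higher and Tgfa, another ligand of the receptor, lower, at from 14.2 through a median of 21.4 to 25.4 TPM in mSGc against 52.9, 45.96 and 40.6 TPM in IMOK (log2 fold change -0.94 ± 0.17, adjusted p = 0.00589). The FGF list had 1 called higher and 4 lower of 23 (21.7%). Fgfr2, the receptor through which FGF signals drive salivary branching, ran from 8.98 through a median of 12.7 to 16.5 TPM against 53.8, 53.98 and 45.04 TPM (log2 fold change -1.77 ± 0.21, adjusted p = 0.000857), and the ligand Fgf5 was 1.17, 1.39 and 2.14 TPM in IMOK with 1 count in mSGc (pooled ratio 122, 95% interval 21.3 to 4852, adjusted p = 0.00108). Fgf7, a ligand of Fgfr2 usually made by mesenchyme, was 41.4, 3.13 and 2.43 TPM in IMOK against at most 1.27 TPM in mSGc (log2 fold change -5.64 ± 1.28, adjusted p = 0.0168), and lost the call without IMOK replicate 1 (adjusted p = 0.0961). In the TGF-beta and BMP pathway, with 4 higher and 3 lower of 42 (16.7%, near the 15% of all genes), Bmpr1b, a BMP receptor, was steady in IMOK at 11.2, 10.5 and 10.8 TPM and ran from 0.176 through a median of 0.434 to 1.69 TPM in mSGc (log2 fold change -3.91 ± 0.62, adjusted p = 0.00343).

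The Hedgehog list had 1 member higher and 4 lower of only 10 tested (50%, beside 15% of all genes). Of these calls 0 higher and 3 lower held in all 9 fits. Gli2, the activating transcription factor of the pathway, was 14.03, 1.88 and 1.25 TPM in IMOK, the highest in replicate 1, against at most 0.162 TPM in mSGc (log2 fold change -5.49 ± 0.86, adjusted p = 0.00322). Gli3, mainly its repressor, ran from 4.06 through a median of 5.16 to 6.35 TPM against 15.9, 12.8 and 11.6 TPM (log2 fold change -1.15 ± 0.19, adjusted p = 0.00363), and Hhat, which palmitoylates the ligand, from 0.562 through a median of 2.19 to 5.13 TPM against 32.9, 23.8 and 20.9 TPM (log2 fold change -3.15 ± 0.53, adjusted p = 0.00427). Gas1, a coreceptor of the ligand, was the member higher in mSGc at from 7.65 through a median of 15.95 to 35.1 TPM against 5.25, 2.44 and 1.67 TPM (log2 fold change 2.86 ± 0.63, adjusted p = 0.0152, and 0.0749 and 0.0658 without IMOK replicate 2 or 3). Sufu, the other member called lower, changed less (log2 fold change -0.63 ± 0.18, adjusted p = 0.04), and its call did not hold in all 9 fits. It lies on chromosome 19, where the median log2 fold change of the genes tested was -0.55. The Gli factors and the ligand-modifying enzyme were therefore called lower in all 9 fits, and the coreceptor was not lower.

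Of 38 Wnt genes 1 was called higher and 5 lower (15.8%, near the 15% of all genes). Ror2, a receptor for noncanonical Wnt ligands, ran from 2.51 through a median of 7.18 to 10.9 TPM in mSGc against 0.296, 0 and 0.0314 TPM in IMOK (log2 fold change 6.21 ± 1.05, adjusted p = 0.00447), whereas Lef1, a nuclear partner of beta-catenin, was 6.46, 0.786 and 1.22 TPM in IMOK with 2 counts in mSGc (pooled ratio 164, 95% interval 44.9 to 1359.6, adjusted p = 0.00246). Of 21 Notch genes 3 were higher and 2 lower (23.8%), and none of these calls held in all 9 fits. Notch3 ran from 17.1 through a median of 28.2 to 65.4 TPM in mSGc against 12.97, 3.56 and 0.675 TPM in IMOK (log2 fold change 2.76 ± 0.75, adjusted p = 0.035) and Notch1 from 37.2 through a median of 67.4 to 105 TPM against 42.4, 33.1 and 28.8 TPM (log2 fold change 1.22 ± 0.33, adjusted p = 0.035). Without IMOK replicate 2 the adjusted p was 0.14 for Notch3 and 0.129 for Notch1, and removal of other libraries ended these calls as well.

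Among the 51 axon guidance genes tested 5 were called higher and 8 lower (25.5%, beside 15% of all genes), of which 2 and 4 held in all 9 fits. Nrp1, a receptor for semaphorins and VEGF, was 114, 222 and 219 TPM in IMOK and ran from 2.92 through a median of 10.04 to 20.02 TPM in mSGc, its lowest at P25 (log2 fold change -3.93 ± 0.50, adjusted p = 0.00122). Sema3b, a secreted semaphorin that binds neuropilins, was 30.98, 6.35 and 4.103 TPM in IMOK against at most 0.5499 TPM in mSGc (log2 fold change -5.05 ± 0.68, adjusted p = 0.00159). Efna3, an ephrin ligand, ran from 39.8 through a median of 71.5 to 107 TPM in mSGc against 22.6, 12.7 and 9.27 TPM in IMOK (log2 fold change 2.51 ± 0.38, adjusted p = 0.00257). The 3 genes kept the lines apart at every passage, which follows from their choice by distance.

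Cytokines and their receptors were called in equal number in both directions, 7 higher and 7 lower of 43 tested (32.6%), 6 of which held in all 9 fits. Tslp, thymic stromal lymphopoietin, an alarm cytokine of barrier epithelia, was the most abundant of those higher, at from 300.1 through a median of 1435 to 2566 TPM in mSGc against 111, 25.3 and 33.3 TPM in IMOK (log2 fold change 5.001 ± 1.02, adjusted p = 0.0109, and 0.0573 and 0.0527 without IMOK replicate 2 or 3). Il20rb, a receptor subunit for the IL-20 family, ran from 7.24 through a median of 27.4 to 41.3 TPM against 1.04, 1.83 and 1.81 TPM (log2 fold change 4.28 ± 0.69, adjusted p = 0.00354). Ccl27a, a chemokine that draws T cells to skin, had no count in IMOK and ran from 1.29 through a median of 2.12 to 3.04 TPM in mSGc (at least 9.51-fold, adjusted p = 0.00144). Il1rl2, the receptor for IL-36, was lower at from 0 through a median of 0.542 to 2.03 TPM against 37.8, 16.2 and 11.3 TPM (log2 fold change -4.56 ± 1.01, adjusted p = 0.0153). Ligands and receptors thus lay on both sides.

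Of 50 interferon-stimulated genes 2 were called higher and 2 lower (8%, beside 15% of all genes), while 17 had an unadjusted p under 0.05 and their median log2 fold change was 1.23. This did not hold over the passages: relative to the IMOK mean, the median log2 level of the list was 2.71 at P2, 0.66 at P4, 1.45 and 2.204 at P10 in SFM and SCM, and -0.24 and -0.46 at P25, with 1.14, -0.36 and -0.71 in the IMOK replicates. Ifitm1, a membrane protein that blocks viral entry, was 55.9, 12.01 and 4.16 TPM in IMOK against at most 0.776 TPM in mSGc (log2 fold change -5.84 ± 0.94, adjusted p = 0.00354), while Ifitm3, of the same family, was abundant in both at from 1825 through a median of 2041 to 3081 TPM against 1552, 1423 and 1189 TPM (log2 fold change 0.90 ± 0.21, adjusted p = 0.0178, and 0.0757 and 0.0803 without IMOK replicate 2 or 3). H2-T23, the nonclassical MHC molecule Qa-1, ran from 63.1 through a median of 116 to 155 TPM against 22.99, 15.1 and 8.24 TPM (log2 fold change 3.10 ± 0.38, adjusted p = 0.00101). Such families hold close copies, and how shared reads were counted is not stated, so their values are uncertain. Defb1, an epithelial antimicrobial beta-defensin, ran from 2.05 through a median of 38.03 to 78.8 TPM in mSGc against 2.31, 0.3798 and 1.09 TPM in IMOK (log2 fold change 5.01 ± 1.07, adjusted p = 0.0138, and 0.0644 and 0.0578 without IMOK replicate 2 or 3).

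Claudins were called in both directions. Of 23 tight junction genes 1 was called higher and 5 lower (26.1%). Cldn8, a claudin of tight distal tubules and ducts, ran from 0.948 through a median of 5.11 to 21.4 TPM in mSGc with 2 counts in IMOK (pooled ratio 247, 95% interval 68.1 to 2044, adjusted p = 0.00431). Cldn6, a claudin of embryonic epithelium, was 499.6, 461 and 578 TPM in IMOK and 64.7 TPM at P2, 5.099 TPM at P4 and at most 0.0781 TPM in the later mSGc libraries. Its call (log2 fold change -5.33 ± 1.59, adjusted p = 0.0483) was lost with 8 of the 9 libraries left out in turn, for example without IMOK replicate 2 (adjusted p = 0.111), although every mSGc library lay under every IMOK library. Cldn9, its neighbour in the family, was 6.51, 2.25 and 1.99 TPM in IMOK with 6 counts in mSGc (pooled ratio 27.1, 95% interval 12.1 to 75.2, adjusted p = 0.00633).

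Among 33 cadherin and desmosome genes 6 were higher and 2 lower (24.2%), 2 of which held in all 9 fits. Cdh1, E-cadherin, ran from 358 through a median of 634 to 778 TPM in mSGc against 315, 258 and 283 TPM in IMOK (log2 fold change 1.29 ± 0.27, adjusted p = 0.0132, and 0.0724 and 0.0501 without IMOK replicate 2 or 3), and Cdh13, a cadherin without a cytoplasmic part, from 35.5 through a median of 40.2 to 109.8 TPM against 15.5, 15.9 and 10.8 TPM (log2 fold change 2.14 ± 0.39, adjusted p = 0.00683). Cdh6, a cadherin of kidney and neural crest, was 16.4, 6.35 and 11.8 TPM in IMOK and was found at P2 alone in mSGc (0.359 TPM, log2 fold change -7.33 ± 1.05, adjusted p = 0.00208). Of 33 integrin and laminin genes 3 were higher and 4 lower (21.2%). Itgb8, an integrin subunit that activates TGF-beta, ran from 2.28 through a median of 5.33 to 8.98 TPM against 1.48, 0.4495 and 0.121 TPM (log2 fold change 3.29 ± 0.71, adjusted p = 0.0142, and 0.0721 without IMOK replicate 2). Lama1, a laminin chain of embryonic basement membrane, was 5.29, 0.268 and 0.236 TPM in IMOK with 3 counts in mSGc (pooled ratio 194, 95% interval 65.98 to 944, adjusted p = 0.00618), most of it in replicate 1. Fibroblast and matrix genes, as a check on other cells, had 0 higher and 2 lower of 33 (6.06%). Their median log2 level relative to the IMOK mean was 1.01 in IMOK replicate 1 and -0.49 and -0.42 in replicates 2 and 3, and in mSGc it was 1.28 at P2 and between -1.02 and 0.04 in the other libraries. Several genes given here as lower in mSGc, among them Lama1, Parvb, Eya1, Fgf7, Gli2, Sgce and Peg10, were likewise highest in IMOK replicate 1, and what part the one had in the other was not tested.

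S100 and annexin genes were called in 1 direction, 6 higher and 0 lower of 20 (30%), and 4 held in all 9 fits. S100a1, a calcium sensor of muscle and some epithelia, ran from 48.4 through a median of 95.5 to 143 TPM in mSGc against 6.49, 5.09 and 4.87 TPM in IMOK (log2 fold change 4.30 ± 0.36, adjusted p = 8.94e-05). S100a13, linked to secretion without a signal peptide, ran from 26.8 through a median of 46.7 to 56.6 TPM against 12.5, 11.03 and 5.76 TPM (log2 fold change 2.39 ± 0.36, adjusted p = 0.00246), and S100a16 from 331 through a median of 379 to 543 TPM against 113, 167 and 115 TPM (log2 fold change 1.84 ± 0.25, adjusted p = 0.00169). These genes lie together on chromosome 3. Proteases and their inhibitors had 8 higher and 6 lower of 49 (28.6%). Serpine2, which inhibits thrombin and plasminogen activators, ran from 48.5 through a median of 194 to 287 TPM against 5.14, 10.3 and 9.04 TPM (log2 fold change 4.71 ± 0.68, adjusted p = 0.00229), and Plat, tissue plasminogen activator, a target of that inhibitor, was lower at from 0.601 through a median of 4.13 to 7.31 TPM against 67.2, 60.6 and 68.1 TPM (log2 fold change -3.77 ± 0.54, adjusted p = 0.00206). The inhibitor and the protease were therefore separated in opposite directions.

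Metallothioneins led the glucocorticoid list, which had 5 higher and 1 lower of 24 (25%). Mt2, a metal-binding protein induced by steroids and zinc, ran from 1542 through a median of 2758 to 5205 TPM in mSGc against 298, 79.7 and 78.8 TPM in IMOK (log2 fold change 4.58 ± 0.62, adjusted p = 0.00169), and Mt1, its close relative on chromosome 8, from 1544 through a median of 2907 to 5177 TPM against 519, 377 and 362 TPM (log2 fold change 3.12 ± 0.43, adjusted p = 0.00169). Ddit4, an mTOR inhibitor induced by steroids, hypoxia and DNA damage, ran from 399 through a median of 483 to 1278 TPM against 228, 209.7 and 79.7 TPM (log2 fold change 2.11 ± 0.46, adjusted p = 0.0145, and 0.0544 without IMOK replicate 3). Hsd11b1, which regenerates active glucocorticoid, was lower at from 0 through a median of 0.756 to 2.22 TPM against 16.2, 16.8 and 13.2 TPM (log2 fold change -3.83 ± 0.95, adjusted p = 0.024, and 0.0829 and 0.064 without IMOK replicate 2 or 3). It lost the call without the P4 library in SFM as well (0.0539). Both mSGc media contain a glucocorticoid, and whether the medium took part in these values was not tested.

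Genes of xenobiotic and antioxidant metabolism were called 6 higher and 6 lower of 61 (19.7%). Cyp4b1, a cytochrome P450 of airway and bladder epithelium, ran from 14.02 through a median of 28.9 to 106 TPM in mSGc against 0.941, 0.248 and 0.0667 TPM in IMOK (log2 fold change 6.92 ± 0.93, adjusted p = 0.00159). Aldh3a1, a corneal aldehyde dehydrogenase, ran from 184 through a median of 499.8 to 1033 TPM against 84.7, 74 and 24.1 TPM (log2 fold change 3.41 ± 0.61, adjusted p = 0.00585), and Gclc, the catalytic subunit for glutathione synthesis, from 129 through a median of 195 to 261 TPM against 80.9, 59.6 and 55.3 TPM (log2 fold change 1.78 ± 0.24, adjusted p = 0.00155). All 3 were higher in every mSGc library, which follows from their choice by distance. In lipid metabolism, Pparg, the nuclear receptor of fat and sebaceous cells, was 3.96, 2.104 and 2.58 TPM in IMOK with 5 counts in mSGc (pooled ratio 35.7, 95% interval 14.96 to 112, adjusted p = 0.00263), and Acacb, a mitochondrial acetyl-CoA carboxylase, 7.95, 3.06 and 1.47 TPM against at most 0.317 TPM (log2 fold change -4.17 ± 0.49, adjusted p = 0.000772). Of 40 cholesterol and fatty acid genes 1 was higher and 2 lower (7.5%), and of 39 glycolysis and hypoxia genes 4 and 1 (12.8%), both under the 15% of all genes.

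Autosomal imprinted genes had 2 higher and 6 lower of 34 (23.5%). The neighbours Sgce and Peg10 on chromosome 6, both expressed from the paternal copy, were 33.1, 2.85 and 1.86 TPM and 5.74, 0.278 and 0.206 TPM in IMOK, the bulk of it in replicate 1. mSGc held 4 counts of each over 6 libraries, with pooled ratios of 187 (95% interval 72.7 to 689, adjusted p = 0.00509) and 109.5 (95% interval 42.4 to 404, adjusted p = 0.0135). Peg10 fell under the filter on low counts, and so lost its call, in the fits without the P4 or the P25 library in SFM or without IMOK replicate 1 or 2.

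Immediate early and stress genes had 9 higher and 2 lower of 44 (25%), 3 of which held in all 9 fits. Retinoid and nuclear receptor genes had 3 and 2 of 33 (15.2%), smooth muscle and myoepithelial genes 2 and 1 of 22 (13.6%), mucosal defence genes 2 and 0 of 12 (16.7%), and MHC class I genes 2 and 0 of 21 (9.52%), near or under the 15% of all genes. Of the leukocyte list 2 genes passed the filter and both were lower, and of the endothelial, melanocyte, glial and neuronal list 6 passed and 0 were called (1 at an unadjusted p under 0.05).

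**Figure D4:**
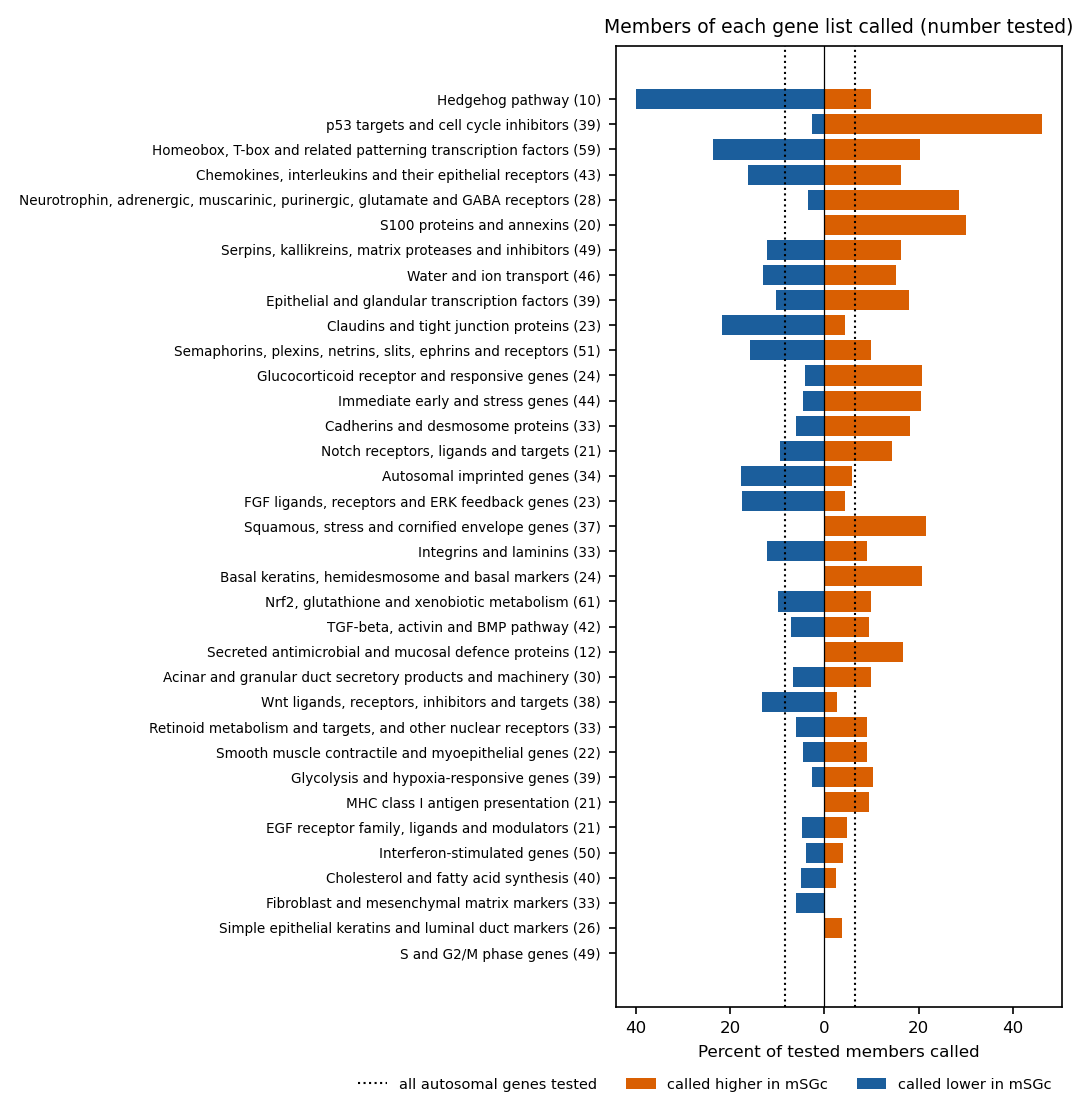
Percent of the tested members of each gene list that were called higher (right) or lower (left) in mSGc, with the number tested in brackets. Dotted lines give the share over all autosomal genes tested, 6.55% higher and 8.46% lower; the p53, S100, squamous and basal lists reach mainly to the right, and patterning factors to both sides. Lists with fewer than 10 tested members are left out.

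Whole chromosomes differed between the lines, and this moved with the counts above. The median log2 fold change of the genes tested was -0.56 on chromosome 5 and -0.55 on chromosome 19, where 27.9% and 24.2% of genes were called lower beside 8.46% over all autosomes. It was 0.35 on chromosome 8, 0.36 on chromosome 14 and 0.31 on chromosome 4, where 14.8%, 15.8% and 11.3% were called higher beside 6.55%. The shifts of chromosomes 4, 5 and 19 were present in each of the 6 mSGc libraries, those of chromosome 5 between -0.64 and -0.50. The median of chromosome 8 was -0.01 at P2 and 0.26 to 0.44 in the other mSGc libraries, and that of chromosome 14 was -0.02 at P10 in SFM and 0.16 to 0.54 in the others. In the IMOK libraries the medians of these 5 chromosomes lay between -0.08 and 0.13.

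Without these 5 chromosomes 522 genes were called higher (5.66% of the 9216 left) and 640 lower (6.94%), of which 116 and 175 were separated at least 2-fold. When each distance was centred on the median of its chromosome, 155 and 236 genes were separated at least 2-fold in place of 160 and 246. Tlx1, Nkx2-3 and Fam111a on chromosome 19 and Ereg and P2rx7 on chromosome 5 were higher in mSGc against the direction of their chromosome. Hmx1, Fgf5 and Acacb on chromosome 5 and Sufu on chromosome 19 were lower, in the direction of theirs. What part the chromosome shifts had in the calls was not tested.

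**Figure D5:**
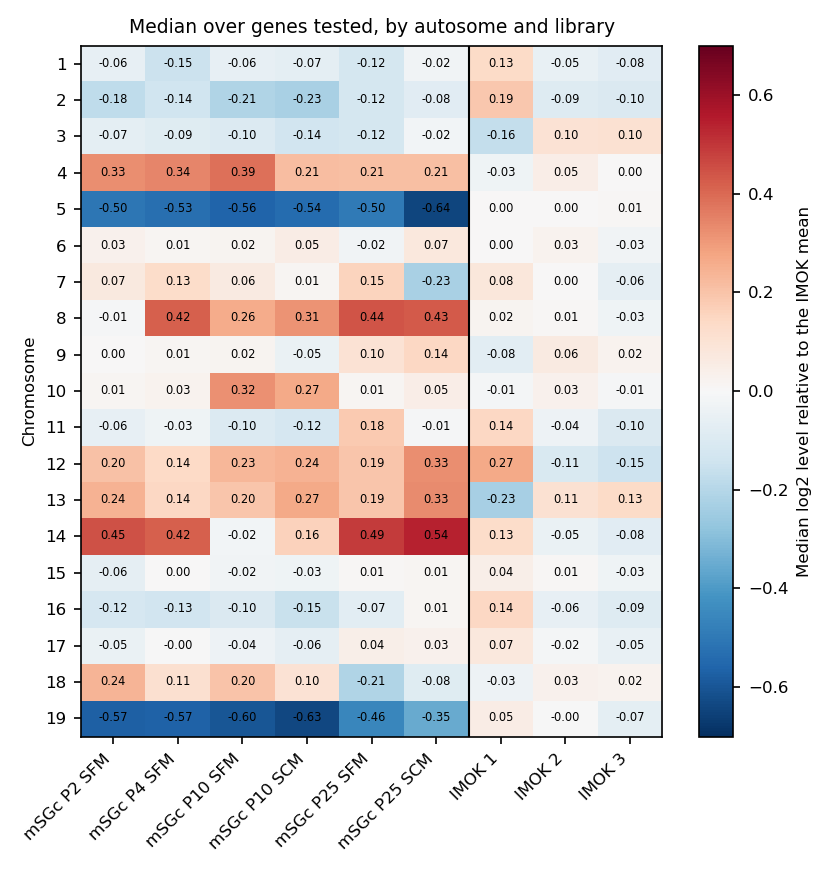
Median over the genes tested of each autosome's log2 CPM relative to the IMOK mean, for the 6 mSGc libraries (left of the line) and the 3 IMOK replicates. Red is higher and blue lower; chromosomes 5 and 19 are blue and chromosome 4 red in all 6 mSGc libraries, while 8 and 14 are near 0 in 1 mSGc library each.

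Promoter composition was described for the called genes, in windows from 250 bases before to 50 after the annotated start in mm9. The median number of CpG dinucleotides was 21 over all genes tested, 18 over those called higher and 21 over those called lower. It was 14 and 12 over the genes separated at least 2-fold, and 11 and 9 over those called with at most 3 counts in every library of the other line. The GC box GGGCGG was in 65.1% of windows of all genes tested and in 36.5% and 40.6% of these last sets, higher and lower. Genes called with at most 3 counts in every library of the other line thus had a lower median number of CpG than all genes tested, in both directions. Such genes passed the filter on low counts through 1 line alone. Over all autosomal entries, tested or not, the median was 13 CpG and 46.1% of windows held a GC box, closer to these sets. What part the filter had in the difference was not tested. Of the genes with windows printed above, Tlx1 and Msx2 belong to the higher and Tbx1 to the lower of the sets with at most 3 counts. These windows held 16, 22 and 26 CpG, more than the medians of 11 and 9. The printed Tbx1 window is not the one counted in mm9, and a window at another Tbx1 start held 16.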

How the data were processed

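RNA-seq was performed on total RNA of 6 mSGc and 3 IMOK libraries. Per the labels, reads were processed with TopHat2 2.1.1, Bowtie2 2.2.6 and featureCounts 1.5.1 on mm9, and DESeq2 1.12.4 is named too. The authors deposited raw counts per gene, without normalization; strandedness and the handling of reads shared between genes are not given in the sources used here, so overlapping, antisense and closely related genes are uncertain. Of 23366 entries, 27 with names turned into dates and 4 with repeated names (at most 0.243% of a library) were not named, and 1151 on chromosome X, Y or unplaced sequence were not reported. TPM was computed from the counts and deposited gene lengths.

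The counts were fitted in R 4.3.3 with edgeR 4.0.16 (TMM, filterByExpr, glmQLFit and glmQLFTest), 6 against 3 libraries with 7 residual degrees of freedom. P-values were adjusted by the Benjamini-Hochberg method over all 12885 genes tested. Standard errors are the absolute log2 fold change over the square root of F. The fit was tested on simulated data. DESeq2 1.42.0 and limma 3.58.1 (voom) were alternatives, and Python 3.11.15 with pandas 2.3.3 and scipy 1.17.1 was used for summaries. Where the lower line had no count, the bound is the mean CPM of the other line over the CPM of 3 counts in the shallowest library of the lower line; with at most 3 counts per library, the ratio of pooled counts is given with its exact 95% interval. Intervals and bounds cover counting error only. The shallowest library was one of mSGc, so that a gene without reads is bounded less closely in mSGc.

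Gene lists (37, with 1115 tested genes) and the genes and samples compared were chosen with earlier results of these data known. Named genes are the 12 per direction with the widest distance among called genes with a symbol and a mean of at least 10 TPM in the higher line, up to 5 called members of each list by distance, and other list members and markers; a few genes that meet this rule are not reported here. The alternatives without chromosomes 4, 5, 8, 14 and 19 and with distances centred on the chromosome median were chosen after seeing the data. No column held values of samples outside the labels.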

Additional observations from a re-analysis of the deposited data

Results flagged for a closer look

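For 21 of 122 named genes 1 of the 6 mSGc libraries stood apart from the other 5 by Dixon's test at the 95% level. Chance flags about 1 in 20 groups of normally distributed values; TPM are skewed, the 6 libraries differ in passage and medium, and a gene read in 1 library alone is always flagged (Tbx1, Smr3a, Cdh6, Fgf5, Lef1 and Ntf3), so the share is a description. The library at P10 in SCM was the one apart for 7 of these genes, P4 in SFM for 5, P2 and P25 in SFM for 3 each, P10 in SFM for 2 and P25 in SCM for 1. In each the value was the highest of the 6.

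At P10 in SCM the duct factor Tfcp2l1 was 484 TPM with the next library at 91.5 TPM, Krt19 was 287 TPM with the next at 87.4 TPM, and the neurotrophin receptor Ntrk3 was 18.7 TPM with the next at 4.98 TPM. In the same library Cldn8 was 21.4 TPM, Meis2 53.4 TPM, Sox2 44.2 TPM and Notch3 65.4 TPM. At P10 in SFM Ddit4 was 1278 TPM with the next library at 673 TPM, and Cdh13 was 109.8 TPM with the next at 56.3 TPM. At P2 in SFM Cldn6 was 64.7 TPM with the next at 5.10 TPM, Fgf7 was 1.27 TPM and Cdh6 0.359 TPM. At P25 in SFM Lgals7 was 1198 TPM with the next at 282 TPM. At P4 in SFM Bmpr1b was 1.69 TPM, Apol7a 0.466 TPM and Smr3a 3.86 TPM, the last with 0 in the others.

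For the genes all but absent from mSGc such a value was a single or a few counts: Tbx1 at 0.0627 TPM and Ntf3 at 0.0719 TPM at P4, Fgf5 at 0.04704 TPM and Lef1 at 0.0638 TPM at P25 in SFM, and Parvb at 0.172 TPM at P25 in SCM.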

How the results depend on the processing

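No gene was called in opposite directions and no named gene reversed under any alternative. With 816 genes higher, 1054 lower and 160 and 246 separated at least 2-fold as reported, DESeq2's Wald test called 1437 higher. An adjusted p under 0.01 left 229 and 365, the SCM libraries alone 189 and 237 with 2 mSGc libraries in the fit, P10 and P25 in both media 541 and 688 with 4, and the autosomes other than 4, 5, 8, 14 and 19 held 522 and 640. A prior of 2 CPM left 162 genes separated in the lower direction. Over the 9 fits that left out 1 library each, the counts ran from 258 to 908 higher, from 453 to 954 lower, from 147 to 317 separated higher and from 231 to 349 separated lower. The limits came from fits without an IMOK replicate, and without replicate 3 the counts were 307 higher and 606 lower; the cause was not tested. With library sizes in place of TMM the split was 637 higher and 1353 lower. Other size factors, no filter, a stricter filter, voom and the log2 fold change threshold kept each of the 4 counts within 1.5 times. Of 183 named genes, 89 lost the call with the SCM libraries alone, 78 at 0.01, 63 without IMOK replicate 2, 59 without replicate 3, 28 without replicate 1, and 1 to 32 under each other setting that changed any. Of 113 genes called and described in the text with their levels, 87 were called in all 9 fits. Among the counts of list members called, 385 of the values under alternatives moved by over 1.5 times and 1095 did not. No paired analysis was possible because the mSGc labels carry no replicate numbers. With 2 to 3 IMOK libraries and 7 residual degrees of freedom, a p that missed the threshold does not show that levels were alike.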
